A study of Homo sapiens with 6 samples.

Results

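The genes described here are the dual-specificity phosphatases (DUSP), the Sprouty proteins (SPRY), the SPRED proteins and the ETV transcription factors, as they were measured in LA1-55n human neuroblastoma cells. They were chosen by gene symbol alone: every probe set whose symbol starts with DUSP, SPRY followed by a digit, SPRED, or ETV followed by a digit, without antisense and pseudogene symbols, with the probe set of the highest mean kept for each gene. This gave 35 genes of the 14779 tested, namely 24 DUSP, 3 SPRY and 8 ETV genes; 0 of the 3 SPRED genes and 3 of the 4 Sprouty genes had a named probe set. Dim probe sets were kept, so all 35 entered the test. By role they fall into 10 MAP kinase phosphatases, 14 atypical DUSPs, and 11 Sprouty and ETV genes. The last class holds the 3 Sprouty and the 3 PEA3-type ETV genes (ETV1, ETV4 and ETV5), several of which are known targets of the kinase ERK.

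Cells of the line LA1-55n carried a doxycycline-inducible hairpin against either GFP, a gene they do not have (shGFP, the control), or glycine decarboxylase (shGLDC99). Both groups shared the same inducible system, the same serum-containing medium and 7 days of doxycycline at 0.5 µg/ml. Total RNA of 3 samples per group was hybridised to Affymetrix Human Gene 2.0 ST arrays, lettered a, b and c within each group. The labels name 1 hairpin per target and no arrays without doxycycline, and beyond calling the samples independent they do not say how these were separated, so the p-values cover only the variation among these samples, which may be technical.

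MAP kinases such as ERK, JNK and p38 are switched on by phosphorylation of a threonine and a tyrosine in their activation loop, and a MAP kinase phosphatase switches them off by removing both phosphates. Several of these phosphatases are transcribed in answer to the kinases they inactivate, which makes their transcripts part of a negative feedback loop. Sprouty and SPRED proteins act further upstream, between receptor tyrosine kinases and RAF, and some of them are also induced by ERK signalling. In cells of the sympathetic lineage, signals from receptors such as ALK, RET and the neurotrophin receptors run through this pathway.

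Of the 35 genes, 7 rose in shGLDC99 cells and 0 fell (limma, Benjamini-Hochberg adjusted p under 0.05 over all 14779 genes), where 3.72% of all genes rose and 4.80% fell. The 7 were the MAP kinase phosphatases DUSP4, DUSP8, DUSP10 and DUSP16, the atypical phosphatase DUSP26, the ERK antagonist SPRY2 and the transcription factor ETV5. Their probe sets on the array were 17075973 (DUSP4), 16734271 (DUSP8), 16699533 (DUSP10), 16761631 (DUSP16), 17076179 (DUSP26), 16780069 (SPRY2) and 16962380 (ETV5). Whole cultures were measured, so a difference in the number of cells with a transcript and a difference in its amount per cell cannot be told apart. At an unadjusted p under 0.05, 12 of the 35 were higher and 2 were lower, where 11.1% of all genes were higher and 13.2% lower. Among the 10 MAP kinase phosphatases 4 rose, among the 14 atypical DUSPs 1 rose, and among the 11 Sprouty and ETV genes 2 rose. The median log2 difference (shGLDC99 minus shGFP) was 0.21 in the first class, 0.13 in the second and -0.07 in the third, against -0.01 over all genes, whose middle 50% ran from -0.14 to 0.12. The 3 shGLDC99 arrays lay above the 3 shGFP arrays without overlap for 13 of the 35 genes and below them for 3, where 14.5% and 16.3% of all genes did so. Together 16 of the 35 did not overlap, where 30.8% of all genes did not. With each of the 6 arrays dropped in turn, 4 or 5 genes rose and 0 fell; DUSP4, DUSP8, DUSP16 and SPRY2 were called each time. The median over all genes moved by less than 0.1 under every scaling tried.

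**Figure D1:**
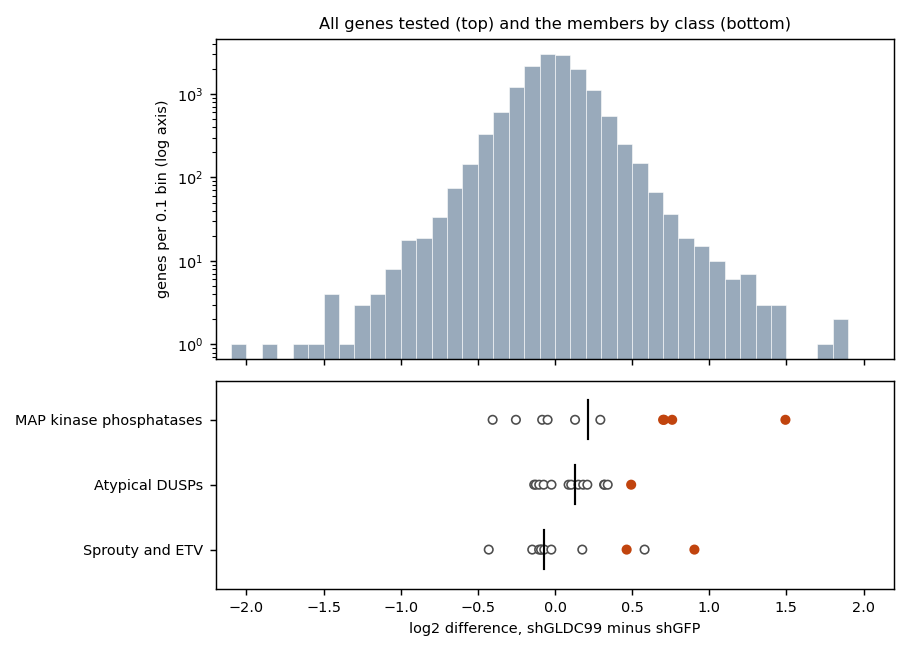
Number of genes per bin of 0.1 in the log2 difference, shGLDC99 minus shGFP, for all 14779 genes (top, log axis), and the same difference for each of the 35 members by class (bottom; filled orange circles rose, open circles were not past the threshold, black bars are class medians). The MAP kinase phosphatases reach furthest to the right, with DUSP4 at 1.49, and 0 filled circles lie below zero.

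The hairpin's target was lower in every shGLDC99 array. GLDC had log2 intensities of 7.85, 7.90 and 7.81 in shGFP arrays a, b and c and 5.98, 5.65 and 5.93 in shGLDC99 arrays a, b and c, a difference of -2.00 ± 0.10 (SE; limma adjusted p = 0.00101). Over the 31135 probe sets, correlations were 0.993 to 0.994 within a group and 0.988 to 0.990 between the groups, and no array stood apart. Of 13 measured markers of the adrenergic neuroblastoma lineage, 11 reached the median gene level of 5.09, among them GATA3, HAND2 and PHOX2A; DBH and STMN2 lay below it. Of 15 measured markers of Schwann, fibroblast, endothelial, leukocyte and epithelial cells, 14 lay below that level, with THY1 the exception. The background of each probe set was not analysed here, so a gene below the median level is not shown to exceed background; this holds for 15 of the 35 genes, which are pointed out below where a result turns on them.

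The nuclear, inducible MAP kinase phosphatases are DUSP1, DUSP2, DUSP4 and DUSP5, which accumulate soon after a stimulus and act on kinases that have entered the nucleus. DUSP4 (MKP-2), which inactivates ERK, JNK and p38, had log2 intensities of 5.26, 5.30 and 5.43 in shGFP arrays a, b and c and 6.82, 6.77 and 6.87 in shGLDC99 arrays a, b and c. The groups were separated by 1.34, many times the spread within either, and the highest control array lay far below the lowest shGLDC99 array. Means were 5.33 ± 0.0888 (SD, n = 3) in shGFP and 6.82 ± 0.0532 (SD, n = 3) in shGLDC99 cells, so DUSP4 rose by 1.49 ± 0.0729 (SE), or 2.82-fold (limma adjusted p = 0.00101). This was the 4th highest difference of the 14779 genes. Its exact two-sided permutation p was 0.1, which is as low as 3 against 3 samples can go, as for any gene whose groups do not overlap. Every alternative processing run on DUSP4 kept the rise, with differences from 1.46 to 1.54.

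The other members of the nuclear class did not pass the threshold. DUSP1 (MKP-1), the classic stress- and growth-factor-induced member, had 7.11, 7.03 and 7.03 in shGFP arrays a, b and c and 7.27, 7.15 and 7.13 in shGLDC99 arrays a, b and c. Its groups did not overlap, but the gap between them was only 0.02, and the difference of 0.13 had a 95% interval of -0.04 to 0.30 (adjusted p = 0.318). DUSP2 (PAC-1), best known from activated lymphocytes, had 5.58, 5.55 and 5.83 in shGFP arrays a, b and c and 5.51, 5.77 and 5.52 in shGLDC99 arrays a, b and c, and its groups overlapped with a difference of -0.05 (95% interval -0.31 to 0.22, adjusted p = 0.837). DUSP5, a nuclear phosphatase selective for ERK, was lower in all 3 shGLDC99 arrays. Its values were 3.13, 3.16 and 3.35 in shGFP arrays a, b and c and 2.80, 2.99 and 2.64 in shGLDC99 arrays a, b and c, a difference of -0.40 (95% interval -0.67 to -0.14, adjusted p = 0.0716). All 6 values of DUSP5 lie below the median gene level, and RefSeq lists 2 pseudogenes named after it, whose share in its signal was not tested. Within this class, then, 1 of 4 genes rose and 0 fell, where 3.72% of all genes rose and 4.80% fell. The class median was 0.04. At an unadjusted p under 0.05 (limma), 1 was higher and 1 lower, where 11.1% of all genes were higher and 13.2% lower.

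The MAP kinase phosphatases that prefer JNK and p38 over ERK are DUSP8, DUSP10 and DUSP16. All 3 rose by similar amounts, where 3.72% of all genes rose. DUSP8 (hVH5), a phosphatase enriched in brain, had log2 intensities of 6.31, 6.20 and 6.35 in shGFP arrays a, b and c and 7.16, 7.12 and 6.86 in shGLDC99 arrays a, b and c. It rose by 0.76 ± 0.0971 (SE), or 1.69-fold, from 6.29 ± 0.0778 (SD, n = 3) to 7.05 ± 0.160 (SD, n = 3) (limma adjusted p = 0.00885). The lowest shGLDC99 array, c, was still 0.51 above the highest control array. RefSeq lists 3 pseudogenes of DUSP8, and whether its probe set also reads them was not tested.

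DUSP16 (MKP-7), which carries JNK out of the nucleus and inactivates it, had 5.61, 5.69 and 5.57 in shGFP arrays a, b and c and 6.44, 6.30 and 6.26 in shGLDC99 arrays a, b and c. Both groups were tight and separated by 0.57, with a rise of 0.71 ± 0.0752 (SE), or 1.63-fold (limma adjusted p = 0.00580). DUSP10 (MKP-5), which acts on p38 and JNK, had 5.97, 6.25 and 6.25 in shGFP arrays a, b and c and 7.06, 6.81 and 6.68 in shGLDC99 arrays a, b and c. It rose by 0.70 ± 0.125 (SE), or 1.63-fold (limma adjusted p = 0.0222), with shGFP array a lowest and shGLDC99 array a highest. With 1 array left out, DUSP10 kept its call in 1 of 6 runs. The adjusted p was 0.0569 to 0.0658 without 1 of shGFP a, b and c, or without shGLDC99 a or b. Without shGLDC99 c it was 0.0422. The difference stayed between 0.60 and 0.79 in these runs. Over all genes, the number called fell from 1259 to between 461 and 546 with 1 array left out. DUSP8 and DUSP16 were called whichever array was left out. Taking each gene relative to its control mean, the median of the 3 genes was 0.87, 0.67 and 0.58 in shGLDC99 arrays a, b and c, against -0.01 to 0.07 in the control arrays.

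The cytoplasmic, ERK-selective MAP kinase phosphatases DUSP6, DUSP7 and DUSP9 did not pass the threshold, and none of them separated the groups. DUSP6 (MKP-3), a target and inhibitor of ERK that is widely read as a gauge of ERK activity, had 3.03, 3.24 and 3.35 in shGFP arrays a, b and c and 3.34, 3.43 and 3.73 in shGLDC99 arrays a, b and c. The difference was 0.29 (95% interval -0.01 to 0.60, adjusted p = 0.224), and shGLDC99 array a lay just below shGFP array c. DUSP7, a close relative of DUSP6, had 6.42, 6.54 and 6.63 in shGFP arrays a, b and c and 6.35, 6.42 and 6.57 in shGLDC99 arrays a, b and c, and the 2 groups covered nearly the same range (difference -0.08, 95% interval -0.30 to 0.13, adjusted p = 0.633). DUSP9 (MKP-4), known from placenta and insulin-responsive tissue, had 3.95, 4.32 and 3.79 in shGFP arrays a, b and c and 3.69, 3.79 and 3.82 in shGLDC99 arrays a, b and c, with shGFP array b above all others (difference -0.25, 95% interval -0.58 to 0.07, adjusted p = 0.319). DUSP6 and DUSP9 lay below the median gene level in every array, which limits what their probe sets can show. At an unadjusted p under 0.05, 0 of these 3 genes differed in either direction (limma), where 11.1% of all genes were higher and 13.2% lower.

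The JNK- and p38-selective phosphatases were set against the cytoplasmic ERK-selective ones within each array, as the log2 ratio of each of the 9 possible pairs. Against DUSP7 the ratio was higher in shGLDC99 cells by 0.84 ± 0.171 (SE, n = 3 per group) for DUSP8, by 0.78 ± 0.180 for DUSP10 and by 0.79 ± 0.139 for DUSP16, without overlap. Against DUSP9 the ratios were higher by 1.01 ± 0.235, 0.95 ± 0.221 and 0.96 ± 0.152 in the same order, again without overlap. Against DUSP6 they were higher by 0.47 ± 0.231, 0.41 ± 0.226 and 0.41 ± 0.196, and here the groups overlapped for all 3. Exact two-sided permutation tests gave p = 0.1 for the 6 pairs without overlap, the smallest that 3 against 3 allows, and p = 0.2 for the other 3 (Benjamini-Hochberg adjusted over the 9 pairs, 0.15 and 0.2). This permutation test cannot reach 0.05 with 3 against 3 samples. The pairs also share genes, and DUSP8, DUSP10 and DUSP16 had already been called, so the pairs are not separate evidence. The difference between the 2 classes therefore stands as a description.

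**Figure D2:**
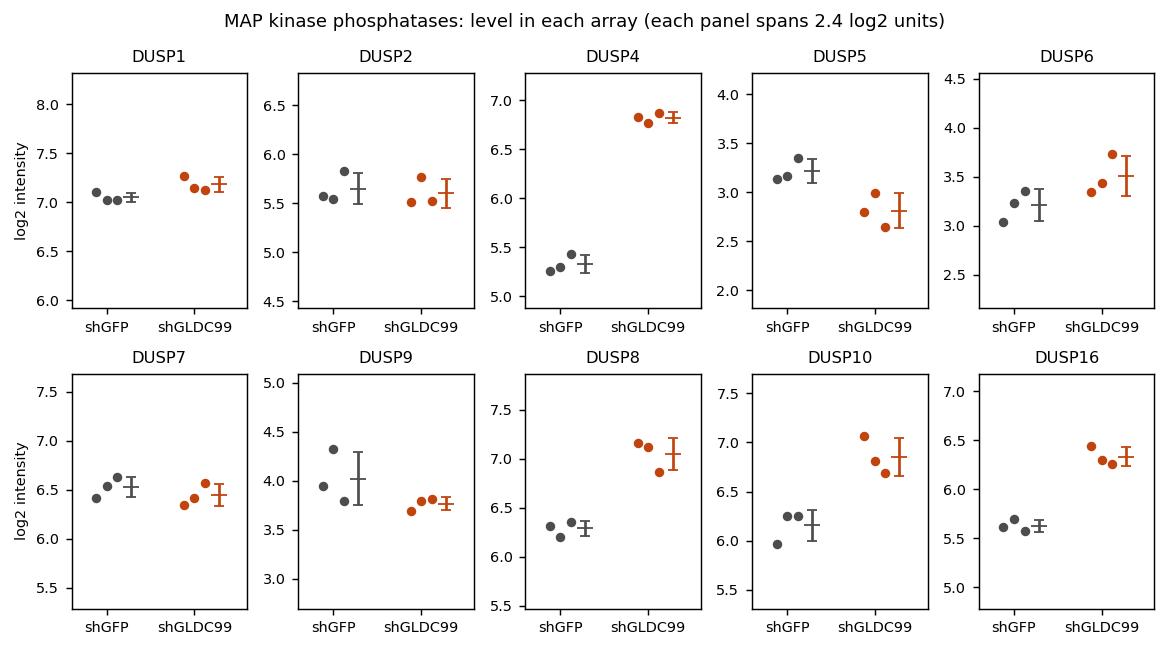
Log2 intensity of the 10 MAP kinase phosphatases in each of the 3 shGFP arrays (grey) and 3 shGLDC99 arrays (orange), with the mean and SD of each group at the right of its points; all panels span the same number of log2 units. DUSP4, DUSP8, DUSP10 and DUSP16 separate the groups by 0.44 or more, while DUSP2, DUSP6, DUSP7 and DUSP9 overlap.

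To show what sequence lies at the starts of genes that rose together, promoter windows were taken from RefSeq (GRCh38.p14), each with 250 bases before and 50 bases from the transcription start; 27 of the 35 genes have 1 or more windows, 44 in all. They are printed 5′ to 3′ on the gene's strand for 4 of the genes that rose and, as a contrast, for DUSP1, which was not past the threshold. DUSP4, DUSP26 and ETV5 also rose but are not printed, so the sequences shown do not cover all genes that rose. The first listed window is shown for DUSP10 and SPRY2, which have 2 and 3. Capitals mark matches, on either strand, to motifs of factors known to read kinase signals: the cAMP response element (CRE) TGACGTCA and its shorter core TGACG, which lies inside it, the ETS motif CCGGAAG, the EGR motif GCGNGGGCG and the AP-1 motif TGANTCA, together with the TATA box TATAAA and the CArG box.
DUSP8 (chr11:1572222-1572521, minus strand): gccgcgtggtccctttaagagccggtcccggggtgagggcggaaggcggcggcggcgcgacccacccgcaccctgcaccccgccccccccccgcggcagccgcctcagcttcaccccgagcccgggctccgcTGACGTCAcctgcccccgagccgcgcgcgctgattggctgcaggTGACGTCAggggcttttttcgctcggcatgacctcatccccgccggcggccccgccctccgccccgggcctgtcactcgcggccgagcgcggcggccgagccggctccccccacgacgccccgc
DUSP10 (chr1:221742040-221742339, minus strand): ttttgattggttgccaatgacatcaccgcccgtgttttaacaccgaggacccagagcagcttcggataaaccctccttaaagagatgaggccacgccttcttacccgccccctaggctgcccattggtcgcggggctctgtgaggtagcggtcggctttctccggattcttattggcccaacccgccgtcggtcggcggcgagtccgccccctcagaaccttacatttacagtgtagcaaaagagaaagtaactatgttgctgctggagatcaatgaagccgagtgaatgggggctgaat
DUSP16 (chr12:12562814-12563113, minus strand): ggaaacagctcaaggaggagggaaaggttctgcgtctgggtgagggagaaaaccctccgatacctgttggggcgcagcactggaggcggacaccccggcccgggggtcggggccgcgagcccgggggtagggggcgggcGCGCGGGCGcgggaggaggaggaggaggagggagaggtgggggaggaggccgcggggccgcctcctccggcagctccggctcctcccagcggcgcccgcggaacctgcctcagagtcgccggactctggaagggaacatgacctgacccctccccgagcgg
SPRY2 (chr13:80341077-80341376, minus strand): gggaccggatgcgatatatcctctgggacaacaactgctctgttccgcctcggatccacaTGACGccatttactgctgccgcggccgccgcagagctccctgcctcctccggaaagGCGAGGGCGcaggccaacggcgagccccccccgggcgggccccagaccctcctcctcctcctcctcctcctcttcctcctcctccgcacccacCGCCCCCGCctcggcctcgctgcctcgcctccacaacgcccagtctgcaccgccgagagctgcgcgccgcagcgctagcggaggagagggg
DUSP1 (chr5:172771146-172771445, minus strand): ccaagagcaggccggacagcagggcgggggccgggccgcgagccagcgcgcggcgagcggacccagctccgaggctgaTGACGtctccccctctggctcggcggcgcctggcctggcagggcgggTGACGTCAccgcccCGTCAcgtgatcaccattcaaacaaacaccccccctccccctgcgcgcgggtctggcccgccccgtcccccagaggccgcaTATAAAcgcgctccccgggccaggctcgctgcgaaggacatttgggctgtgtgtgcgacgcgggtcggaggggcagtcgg

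In these windows DUSP8 holds 2 full CREs, beginning 118 and 74 bases before the start, and DUSP1 holds 1, beginning 125 bases before it. A full CRE occurs in 3 of the 44 member windows, those of DUSP1, DUSP8 and ETV2, and in 1.85% of all 35116 windows in the RefSeq table; of these 3 genes only DUSP8 rose. The EGR motif is present 1 time in the DUSP16 window and 2 times in the SPRY2 window. It occurs in 11 member windows, from 10 genes, and in 9.43% of all windows. Of the 10 genes with an EGR match DUSP16 and SPRY2 rose, whereas DUSP2, DUSP3, DUSP14, DUSP15, DUSP28, ETV2, ETV6 and SPRY4 were not past the threshold. The short core TGACG is in 18 member windows and in 24.6% of all windows. The ETS motif is in 2 member windows (DUSP15 and ETV3L; 10.3% of all windows), the AP-1 motif in 1 (SPRY3; 7.71%), the TATA box in 2 (DUSP1 and SPRY3; 11.5%) and the CArG box in 0 (1.29%). The DUSP10 window shown has no match to any of them, but the other DUSP10 window holds the short core TGACG. DUSP4, DUSP26 and ETV5 are not among the genes with a match to any of these motifs. A gene without a window, as 8 of the 35 are, cannot have a match. Some windows of the same gene overlap, so windows are not independent, and a match is a run of letters, not a shown binding site.

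Sprouty proteins bind adaptors below receptor tyrosine kinases and damp the signal to ERK. SPRY2 had log2 intensities of 5.47, 5.20 and 5.64 in shGFP arrays a, b and c and 6.23, 6.36 and 6.42 in shGLDC99 arrays a, b and c. All shGLDC99 arrays lay 0.60 or more above the highest control, and SPRY2 rose by 0.90 ± 0.121 (SE), or 1.87-fold, from 5.43 ± 0.220 (SD, n = 3) to 6.34 ± 0.0955 (SD, n = 3) (limma adjusted p = 0.00962). It ranked 46th from the top among all 14779 differences and was called whichever array was left out, with an adjusted p of 0.0239 to 0.0421. SPRY3, a Sprouty gene of the pseudoautosomal region that is expressed in brain, had 4.60, 4.82 and 5.03 in shGFP arrays a, b and c and 5.12, 5.36 and 5.72 in shGLDC99 arrays a, b and c. Its groups did not overlap, by a margin of 0.09, and the difference of 0.58 (95% interval 0.16 to 1.0) was not past the threshold (adjusted p = 0.0934). All 3 shGFP values of SPRY3 lay below the median gene level of 5.09, so its control level is not shown to exceed background. The SPRY3 difference was past the threshold in 2 alternatives. These were a prior variance that follows intensity (limma adjusted p = 0.0248) and leaving out the dimmest 40% of genes (0.0405). SPRY3 has 2 probe sets, and the second gave a similar difference of 0.54. Whether the 2 probe sets read the same sequence was not tested, so the second is not shown to be a separate reading. SPRY4, an ERK- and FGF-induced member, had 3.42, 3.27 and 3.13 in shGFP arrays a, b and c and 3.30, 3.47 and 3.59 in shGLDC99 arrays a, b and c, with overlapping groups and a difference of 0.18 (95% interval -0.08 to 0.43, adjusted p = 0.377). It lay below the median gene level in every array. In all, 1 of 3 Sprouty genes rose and 0 fell, where 3.72% of all genes rose and 4.80% fell. All 3 had a positive difference. At an unadjusted p under 0.05 (limma), 2 were higher and 0 lower (11.1% and 13.2% of all genes).

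ETV1, ETV4 and ETV5 form the PEA3 subfamily of ETS factors, activators of transcription whose own genes are induced by FGF and ERK signalling. ETV5 had 2.76, 2.96 and 2.72 in shGFP arrays a, b and c and 3.25, 3.24 and 3.34 in shGLDC99 arrays a, b and c. Its groups did not overlap and it rose by 0.46 ± 0.0845 (SE), or 1.38-fold (limma adjusted p = 0.0233). This rise lies at the dim end of the arrays, below the median gene level throughout, so its size is uncertain, and it was not tested without the dimmest 40% of genes. The adjusted p was 0.0667 to 0.0775 without shGFP a or c or without shGLDC99 a, b or c, and 0.0314 without shGFP b. An antisense gene lies within ETV5 in RefSeq, and whether the probe set reads it was not tested.

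ETV1 had 4.73, 4.49 and 4.73 in shGFP arrays a, b and c and 4.40, 4.22 and 4.05 in shGLDC99 arrays a, b and c, and every shGLDC99 array was lower than every control. The difference of -0.43 (95% interval -0.70 to -0.16) was not past the threshold over all genes (adjusted p = 0.0653); without the dimmest 40% of genes it was (0.0240). ETV4 had 3.39, 3.47 and 3.14 in shGFP arrays a, b and c and 3.19, 3.06 and 3.49 in shGLDC99 arrays a, b and c, a difference of -0.09 with overlapping groups (95% interval -0.41 to 0.24, adjusted p = 0.751). ETV1 and ETV4 also lay below the median gene level. So of the 3 PEA3 genes 1 rose, where 3.72% of all genes rose, and the other 2 had differences below zero.

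The other ETV genes are ETV2, a factor of blood and vessel progenitors, the repressors ETV3, ETV6 and ETV7, and ETV3L, a relative of ETV3. Of these 5, 0 passed the threshold in either direction, where 3.72% of all genes rose and 4.80% fell. At an unadjusted p under 0.05 (limma), 0 differed, where 11.1% of all genes were higher and 13.2% lower. All 5 differences were below zero, from -0.15 to -0.02, but those of ETV2, ETV3L, ETV6 and ETV7 turned sign with 1 array left out. The smallest p of the 5 was that of ETV3, with 6.71, 6.71 and 6.75 in shGFP arrays a, b and c and 6.61, 6.60 and 6.51 in shGLDC99 arrays a, b and c. Its groups did not overlap, and the difference was -0.15 (95% interval -0.30 to 0.00, adjusted p = 0.210). ETV2 had 3.25, 3.47 and 3.34 in shGFP and 3.12, 3.33 and 3.39 in shGLDC99, and ETV7 had 3.53, 4.13 and 3.72 in shGFP and 3.57, 3.68 and 3.83 in shGLDC99. They differed by -0.07 and -0.10 with overlapping groups (adjusted p = 0.721 and 0.747), and ETV6 and ETV3L by -0.02 and -0.09. ETV2, ETV3L and ETV7 lay below the median gene level.

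**Figure D3:**
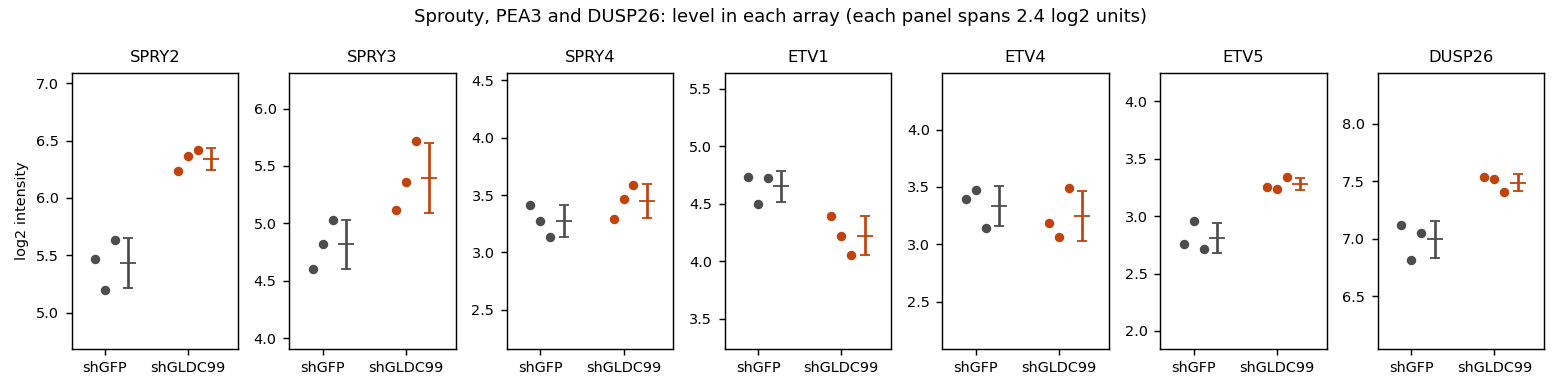
Log2 intensity of the 3 Sprouty genes, the 3 PEA3-type ETV genes and DUSP26 in each shGFP array (grey) and shGLDC99 array (orange), with the mean and SD of each group beside its points; all panels span the same number of log2 units. SPRY2, ETV5 and DUSP26 rose; ETV1 lies lower in all 3 shGLDC99 arrays without passing the threshold, and SPRY4 and ETV4 overlap.

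Atypical DUSPs are smaller enzymes without the kinase-binding domain of the MAP kinase phosphatases, and many act on other substrates. Of 14 measured, 1 rose and 0 fell, where 3.72% of all genes rose. At an unadjusted p under 0.05, 5 were higher and 0 lower, against 11.1% and 13.2% of all genes. The gene that rose was DUSP26, also named NEAP for neuroendocrine-associated phosphatase. It had 7.12, 6.81 and 7.05 in shGFP arrays a, b and c and 7.54, 7.52 and 7.41 in shGLDC99 arrays a, b and c. It rose by 0.49 ± 0.0966 (SE), or 1.41-fold (limma adjusted p = 0.0283), and the groups were 0.29 apart, with shGFP array b the lowest. With 1 array left out, DUSP26 kept its call in 1 of 6 runs, where calls over all genes fell from 1259 to between 461 and 546. The adjusted p was 0.0622 to 0.0908 without shGFP b or c or without shGLDC99 a, b or c. Without shGFP a it was 0.0479. The difference stayed between 0.40 and 0.56 in these runs.

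Among the 13 other atypical DUSPs the differences ran from -0.13 (DUSP29) to 0.34 (DUSP21), with a median of 0.11. The 3 with the smallest p were DUSP22, DUSP3 and DUSP11, and all 3 were higher in shGLDC99 cells without overlap. DUSP22 (JSP-1), a regulator of JNK signalling, had 5.64, 5.69 and 5.77 in shGFP and 6.13, 6.03 and 5.89 in shGLDC99, and a difference of 0.32 (adjusted p = 0.0620). DUSP3 (VHR), which acts on ERK and JNK, had 5.76, 5.81 and 6.0 in shGFP and 6.12, 6.25 and 6.16 in shGLDC99, and a difference of 0.32 (adjusted p = 0.0656). DUSP11 (PIR1) removes phosphates from RNA rather than from kinases. It had 8.52, 8.51 and 8.49 in shGFP and 8.74, 8.65 and 8.76 in shGLDC99, and a difference of 0.21 (adjusted p = 0.0912). These 3 genes were past the threshold with a prior variance that follows intensity (adjusted p 0.0271, 0.0234 and 0.00504 in that order) and without the dimmest 40% of genes (0.0206, 0.0223 and 0.0290). DUSP21, close to the lower end of the scale with values from 1.85 to 2.49, also separated the groups (adjusted p = 0.113). The remaining 9 (DUSP12, DUSP13A, DUSP14, DUSP15, DUSP18, DUSP19, DUSP23, DUSP28 and DUSP29) overlapped between groups.

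**Figure D4:**
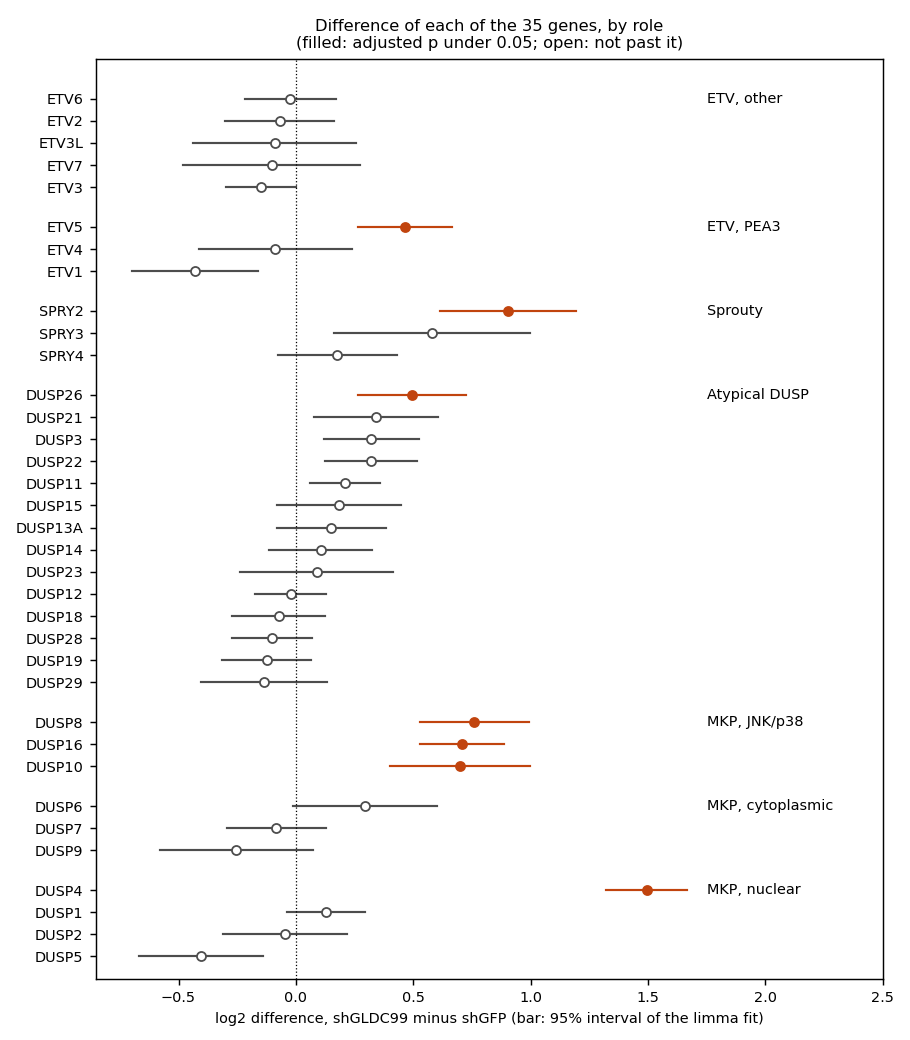
Log2 difference, shGLDC99 minus shGFP, of each of the 35 genes with the 95% interval of the limma fit, sorted by role (MKP, MAP kinase phosphatase; filled orange circles rose, open circles were not past the threshold). All 3 JNK- and p38-selective phosphatases lie between 0.70 and 0.76, DUSP4 lies at 1.49 apart from the other nuclear phosphatases, and the intervals of DUSP5 and ETV1 lie below zero although neither gene passed the adjusted threshold.

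The kinases and adaptors that these genes act on were read from lists of the pathway's other parts. Of 104 measured genes on 8 such lists, 10 rose and 7 fell; the median difference was -0.01, the same as over all genes. Of all genes 3.72% rose and 4.80% fell, and 11.1% were higher and 13.2% lower at an unadjusted p under 0.05, which is the background for the counts of each list. Among the 8 measured RAS and RAF genes 0 rose and 1 fell, the kinase ARAF (-0.29, limma adjusted p = 0.0417); at an unadjusted p under 0.05, 0 were higher and 2 lower. Among the 7 measured genes of MEK, ERK and their direct substrates 0 changed (limma), with 0 higher and 1 lower at an unadjusted p under 0.05.

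Changes in both directions were found in the JNK and p38 cascade, where 3 of 18 measured genes rose and 2 fell. MAPK10 (JNK3), the neuronal JNK, had 5.44, 5.62 and 5.76 in shGFP and 6.23, 6.16 and 6.02 in shGLDC99 and rose by 0.53 (adjusted p = 0.0275). MAP3K13 (LZK), an upstream kinase of JNK in neurons, rose by 0.50 (adjusted p = 0.0112). The JNK-activating kinase MAP2K4 also rose, by 0.47, but is not among the 4 smallest p of this list. MAP3K11 (MLK3), another upstream kinase of JNK, had 6.07, 6.02 and 6.11 in shGFP and 5.19, 5.55 and 5.55 in shGLDC99 and fell by 0.64 (adjusted p = 0.0208). MAP2K6, which activates p38, fell by 0.42 (adjusted p = 0.0218).

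Of 14 RAS adaptors and exchange factors 2 rose and 0 fell, and 4 were higher and 0 lower at an unadjusted p under 0.05 (limma). SHC3, an adaptor of neuronal receptor tyrosine kinases, had 5.08, 5.31 and 5.43 in shGFP and 6.45, 6.40 and 6.27 in shGLDC99 and rose by 1.10 (adjusted p = 0.00419), and its relative SHC2 rose by 0.71 (adjusted p = 0.00804). Of 9 other brakes on RAS and ERK, PEBP1, the RAF kinase inhibitor protein, rose by 0.25 (adjusted p = 0.0498) and 0 fell; at an unadjusted p under 0.05, 3 were higher and 1 lower. Of 17 receptor tyrosine kinases RET, the GDNF receptor, rose by 0.65 (adjusted p = 0.0346), while EGFR fell by 0.64 (adjusted p = 0.0145) and MET by 0.30 (adjusted p = 0.0382). The shGFP values of RET, 4.89, 4.36 and 4.71, lay below the median gene level of 5.09, so its control level is not shown to exceed background. At an unadjusted p under 0.05 (limma), 2 of these receptors were higher and 3 lower. KIT came closest to the threshold without passing it (0.37, limma adjusted p = 0.0503). ALK and FGFR1 were measured and not past the threshold (0.13 and -0.15).

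Of 20 other measured transcripts that ERK is known to induce, 2 rose and 2 fell; 11 differences were above zero and 9 below, and the list median was 0.00. EGR1, an immediate early factor, had 9.69, 9.76 and 9.54 in shGFP and 9.04, 8.86 and 8.96 in shGLDC99 and fell by 0.71 (adjusted p = 0.00762). CCND1, the D-type cyclin that ERK signalling sustains, had 8.34, 8.41 and 8.44 in shGFP and 7.86, 7.74 and 7.80 in shGLDC99 and fell by 0.60 (adjusted p = 0.00647). VGF, a secreted neuropeptide precursor induced by growth factors, rose by 0.57 (adjusted p = 0.0207), and FOSL2, a subunit of AP-1, rose by 0.48 (adjusted p = 0.0301). The groups of these 4 genes did not overlap. Of 11 measured ETS factors outside the ETV family, ETS2 rose by 0.43 (adjusted p = 0.0134) and 0 fell, with 2 higher and 3 lower at an unadjusted p under 0.05.

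Of the 17 called genes on these lists, 5 were called whichever array was left out, namely SHC2, SHC3, MAP3K13, EGR1 and CCND1. ARAF, MAP2K4, PEBP1 and MET lost the call whichever of the 6 arrays was left out, with adjusted p from 0.0718 to 0.134. MAP2K6, MAPK10, MAP3K11, FOSL2, VGF, RET, EGFR and ETS2 lost it without at least 1 array, with adjusted p of up to 0.103 (RET) there.

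**Figure D5:**
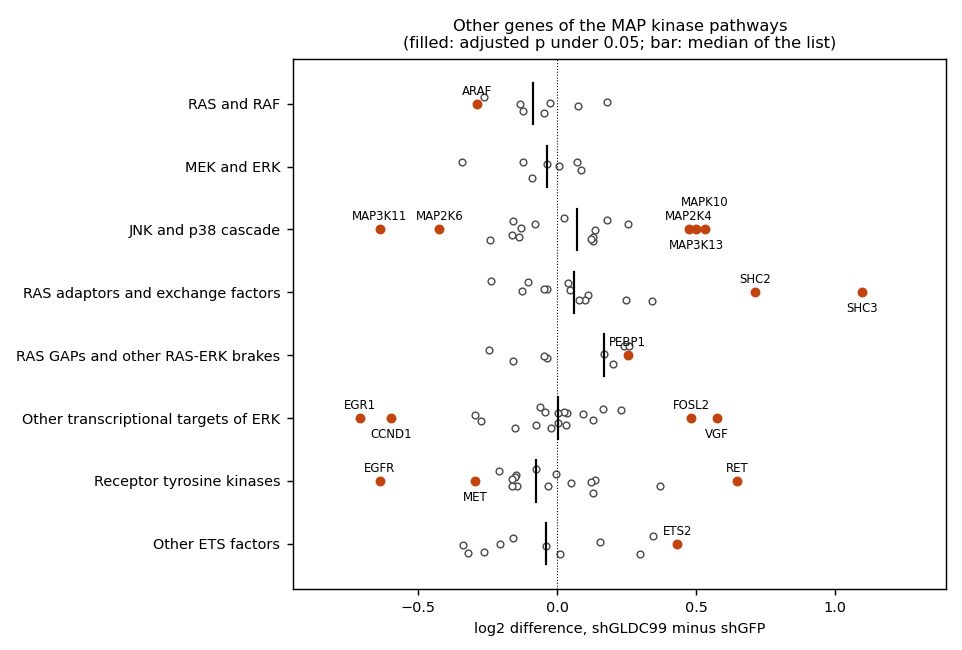
Log2 difference, shGLDC99 minus shGFP, of 104 other genes of the MAP kinase pathways, 1 row per list (filled and named circles changed at an adjusted p under 0.05, open circles did not, black bars are list medians; vertical scatter has no meaning). List medians run from -0.09 to 0.17, and called genes lie on both sides of zero in the JNK and p38 cascade, among ERK targets and among receptor tyrosine kinases.

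Markers of other cells were read beside these results. Of 3 measured fibroblast markers LUM rose by 0.52 (limma adjusted p = 0.0125), at levels of 3.48, 3.43 and 3.54 in shGFP and 3.97, 4.11 and 3.91 in shGLDC99 that are below the median gene level, while DCN and THY1 were not past the threshold; summed over the 3 markers, log2 intensities were 10.7 to 10.9 in shGFP and 11.4 to 11.7 in shGLDC99 arrays. Of 4 Schwann and glial, 2 endothelial, 2 leukocyte and 4 epithelial markers 0 changed (limma), and at an unadjusted p under 0.05, 0 were lower and 2, both epithelial, were higher. Of the 13 adrenergic markers 1 rose, CHGB (0.41, limma adjusted p = 0.0145). In the same list 4 fell (GATA2, GATA3, ISL1 and TBX2), with differences from -1.09 (ISL1) to -0.48 (GATA3). Of all genes 3.72% rose and 4.80% fell, and 11.1% were higher and 13.2% lower at an unadjusted p under 0.05 (limma). The part of these marker shifts in the results above was not tested.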

How the data were processed

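Samples were grouped by their titles, 3 Human Gene 2.0 ST arrays in each group. The deposited values are log2 intensities per probe set and array; the base is not stated and was inferred, since values reach 13.28, whereas natural logs of 16-bit intensities end at 11.09. The submitters' processing notes name Partek, with the version, background correction, normalization and genome build not given in the sources used here. Medians of the arrays were 4.28 to 4.33 and no normalization was added. Of 31135 probe sets 15098 carried a gene symbol in the platform annotation, covering 14779 genes; all matched RefSeq by Entrez ID, and each gene was represented by its brightest probe set. Precision is limited by the number of arrays.

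The test was that of limma 3.58.1, run in R 4.3.3 (lmFit, eBayes, no covariates), with p-values adjusted by Benjamini-Hochberg over all 14779 genes, threshold 0.05; intervals are 95% intervals of that model. It was checked on simulated data. Permutation tests used scipy 1.17.1, and promoter windows came from RefSeq. The genes, lists and tests were chosen with earlier results of these data known. All members past the threshold and all MAP kinase phosphatases, Sprouty and PEA3 genes are given by array, as are the 3 genes of smallest p among the other atypical DUSPs and the other ETV genes; from each pathway list up to 4 called genes with the smallest p are named, and others named there were chosen after their values were seen. Alternatives were repeated quantile normalization, median centring, leaving out the dimmest 40% of genes, averaged probe sets, the replicate letter as a block, a prior variance that follows intensity, array weights, all probe sets, an adjusted p of 0.01, and each array left out.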

Additional observations from a re-analysis of the deposited data

How the results depend on the processing

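The 7 rises were the same genes with repeated quantile normalization, median centring, averaged probe sets, array weights and all 31135 probe sets. Without the dimmest 40% of genes 22 of the 35 genes were tested, 10 rose and 1 fell (ETV1), and 2221 genes changed in all, against 1259 as reported. Fewer genes are tested there, and the prior variance is also estimated anew from the genes that remain. With a prior variance that follows intensity 11 rose and 2438 genes changed, and at an adjusted p under 0.01 4 rose and 275 changed. Without any 1 array 461 to 546 genes changed and 4 or 5 of the members rose. The labels do not say whether arrays of the same letter were paired. Deviations of same-letter arrays correlated at -0.01, 0.02 and -0.00, which shows no common shift but cannot exclude pairing. With the replicate block 229 genes changed and 3 members rose (DUSP4, DUSP16 and SPRY2). Signs that turned belonged to differences not past the threshold: with 1 array left out, DUSP2 ran from -0.13 to 0.0414 (highest without shGFP c), ETV2 from -0.12 to 0.0092 (shGLDC99 a), ETV4 from -0.21 to 0.0047 (shGLDC99 b), ETV7 from -0.23 to 0.0638 (shGFP b), DUSP12 from -0.05 to 0.00698, DUSP23 from -0.06 to 0.20, ETV3L from -0.24 to 0.05 and ETV6 from -0.08 to 0.04. Over the 23 members described and GLDC, 317 of 352 values kept direction and side of the threshold. Levels below the median gene, whose background was not analysed here, limit ETV5, DUSP5, DUSP6, DUSP9, DUSP21, ETV1, ETV4 and SPRY4. The cause of these shifts was not tested.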
